A study of Mus musculus with 8 samples.

Results

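The transcripts described here are those of the NF-kB transcription factor subunits and of the IkB proteins that bind them, in cultured mouse fat cells. The members were the rows of the deposited expression table with the symbols Nfkb1, Nfkb2, Rela, Relb and Rel (5 subunits) and Nfkbia, Nfkbib, Nfkbie, Nfkbiz and Bcl3 (5 IkB proteins). All 10 were found among the 22962 genes of the table, and all 10 lay above the minimum mean of 0.5 FPKM that left 12060 genes for testing, so none was lost to that filter. The tested libraries came from cells given DoxSa (4 libraries, DoxSa 1 to 4) and the comparison libraries from cells given the solvent DMSO (4 libraries, DMSO 1 to 4). Both groups shared everything else in the labels: wild-type (WT) genotype, gonadal tissue, stromal vascular fraction cells differentiated in culture and labelled as mature adipocytes, and day 6. The labels do not spell out DoxSa, and the series title concerns 1-deoxysphingolipids, sphingolipids built on alanine instead of serine. They give no age or dose. Because separate cultures or animals are not stated for the 4 libraries of a group, every p-value below measures only the spread between these libraries, which may be technical.

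NF-kB is a family of dimeric transcription factors built from Rel-homology proteins. In resting cells the dimers are held in the cytoplasm by IkB proteins, and cytokines, microbial products and cell stress activate IkB kinases, which mark IkB for destruction and release the dimers to the nucleus. Several IkB genes and several subunit genes are themselves transcribed in response to NF-kB, so inhibitor and subunit transcripts often move with the pathway they regulate. In fat, the pathway is known for its part in the inflammatory gene programme of adipocytes, their progenitors and resident macrophages.

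DoxSa libraries held more transcript of most of the family than DMSO libraries did. In a fit of limma on log2(FPKM + 1), 7 of the 10 members were called higher in DoxSa at a Benjamini-Hochberg adjusted p under 0.05 over all tested genes, and 0 were called lower. Of all 12060 tested genes, 468 were called higher, which is 3.88%, and 244 were called lower, which is 2.02%. No member was lower at an unadjusted p under 0.05 either (0 of 10), nor in a voom fit on recovered reads (0 lower, 7 higher). The called members were the subunits Nfkb1, Nfkb2 and Relb (3 of 5) and the IkB genes Nfkbia, Nfkbib, Nfkbie and Bcl3 (4 of 5). For these same 7 genes every DoxSa library lay above every DMSO library, a pattern that 7.8% of all tested genes showed. The changes were small: group means were 11.2% to 33.3% higher among the called members, and the median log2 fold change over the 10 members was 0.23, against 0.01 over all tested genes. The count of called members fell to 4 when DoxSa 2 or DoxSa 3 was left out, because Nfkb1, Relb and Bcl3 then missed the threshold. Without a filter on low values, the count was 3.

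**Figure D1:**
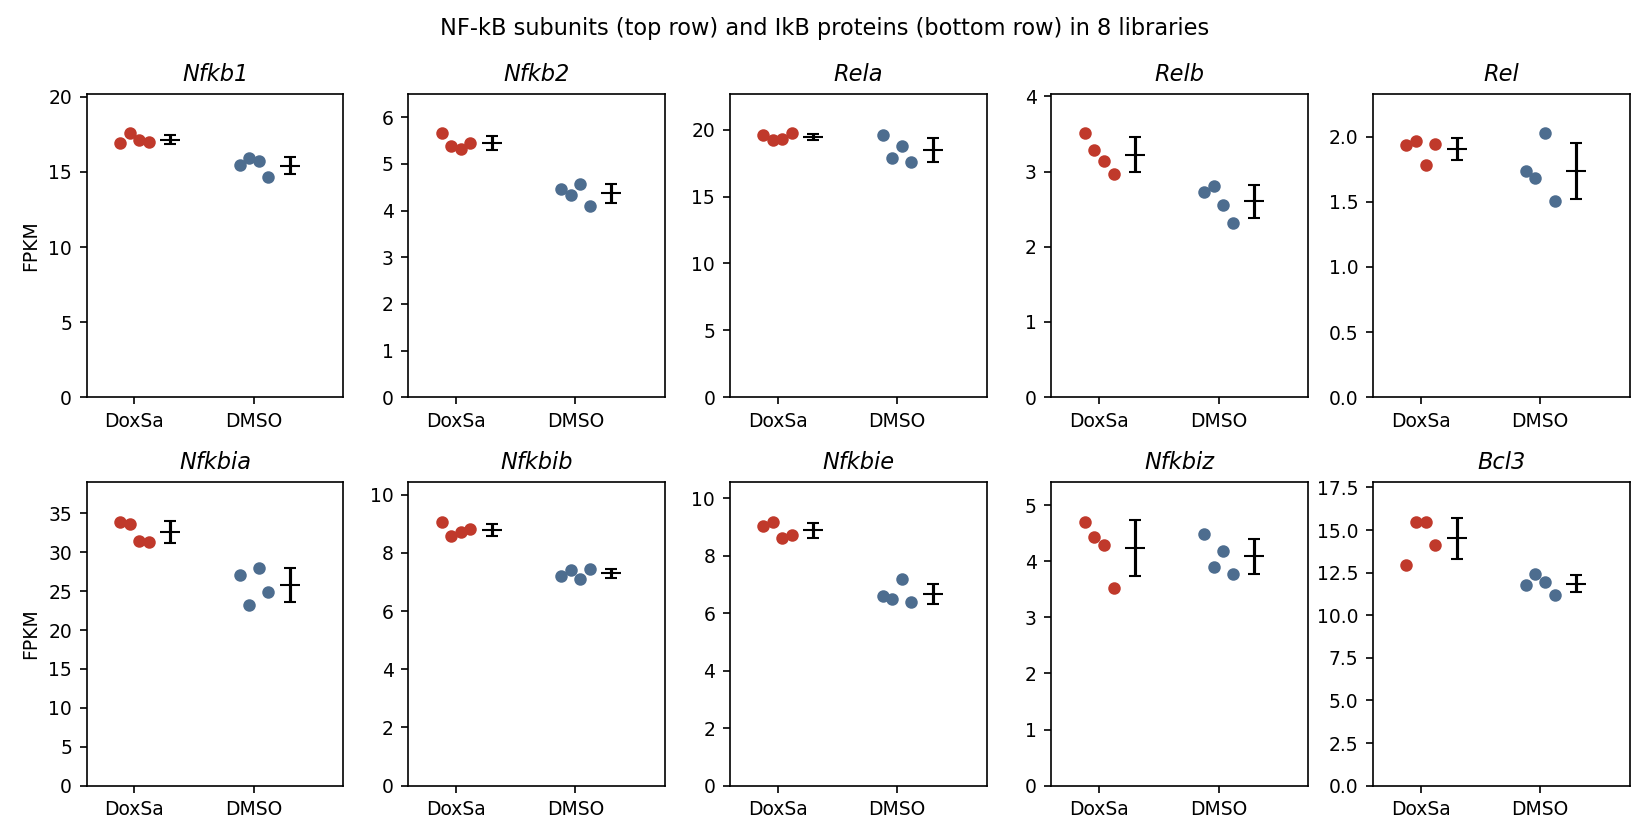
FPKM (y axis, from 0, its own scale per gene) of the 5 NF-kB subunits (top row) and the 5 IkB proteins (bottom row) in 4 DoxSa libraries (left) and 4 DMSO libraries (right). Points are libraries in replicate order, and the bar beside them is the mean with its SD; the points of the groups do not overlap for Nfkb1, Nfkb2, Relb, Nfkbia, Nfkbib, Nfkbie and Bcl3, and they overlap for Rela, Rel and Nfkbiz.

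NF-kB dimers bind a degenerate element of 10 bases known as the kB consensus, and the promoters of the members were searched for it because most members were higher together. RefSeq promoter sequences (build GRCm38.p6, 250 bases before to 50 bases after each start, 300 in all) were at hand for 7 of the 10 members, with 9 promoters. Both strands were searched and overlapping matches were kept. Of these members, 5 had a match in at least 1 promoter (7 of the 9 promoters), whereas Rela and Nfkbib had none. For scale, 8.46% of all 32851 promoters in the table and 10.6% of the 12134 promoters of tested genes held at least 1 match. The stretches around the matches are given here in the direction of the gene, with matching bases in capitals, and positions count from +1 at the first transcribed base. In Nfkb2 a run of 11 capitals holds a pair of overlapping matches, and the same holds in Rel.
Nfkb2, first start, chr19:46304678-46304755, plus strand: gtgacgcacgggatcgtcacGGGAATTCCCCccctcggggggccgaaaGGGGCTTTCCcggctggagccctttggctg
Nfkb2, second start, upstream match, chr19:46305445-46305488, plus strand: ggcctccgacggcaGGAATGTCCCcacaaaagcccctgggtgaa
Nfkb2, second start, chr19:46305685-46305724, plus strand: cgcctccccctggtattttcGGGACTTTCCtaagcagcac
Rel, chr11:23771031-23771081, minus strand: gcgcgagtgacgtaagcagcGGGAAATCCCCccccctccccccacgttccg
Nfkbia, chr12:55492647-55492696, minus strand: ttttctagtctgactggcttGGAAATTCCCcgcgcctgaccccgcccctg
Nfkbie, chr17:45555574-45555623, plus strand: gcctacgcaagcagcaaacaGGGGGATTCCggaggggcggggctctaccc
Bcl3, chr7:19822726-19822773, minus strand: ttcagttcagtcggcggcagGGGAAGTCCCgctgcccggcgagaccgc

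In Nfkb2 the matches began at -39, -38 and -11 of the first start, and the match of the second start began at +11 and fell at -225 of the third. A further match of the second start of Nfkb2 began at -236. Those of Rel began at -92 and -91, that of Nfkbia at -29, that of Nfkbie at -106 and that of Bcl3 at +3. Of the 7 members with a promoter at hand, Nfkb2, Nfkbia, Nfkbie and Bcl3 had a match and were called higher, and Rela had neither. Rel had a match and was not called, and Nfkbib was called without a match in its window. A match is a run of letters and not a bound site, and these libraries hold no measure of binding.

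**Figure D2:**
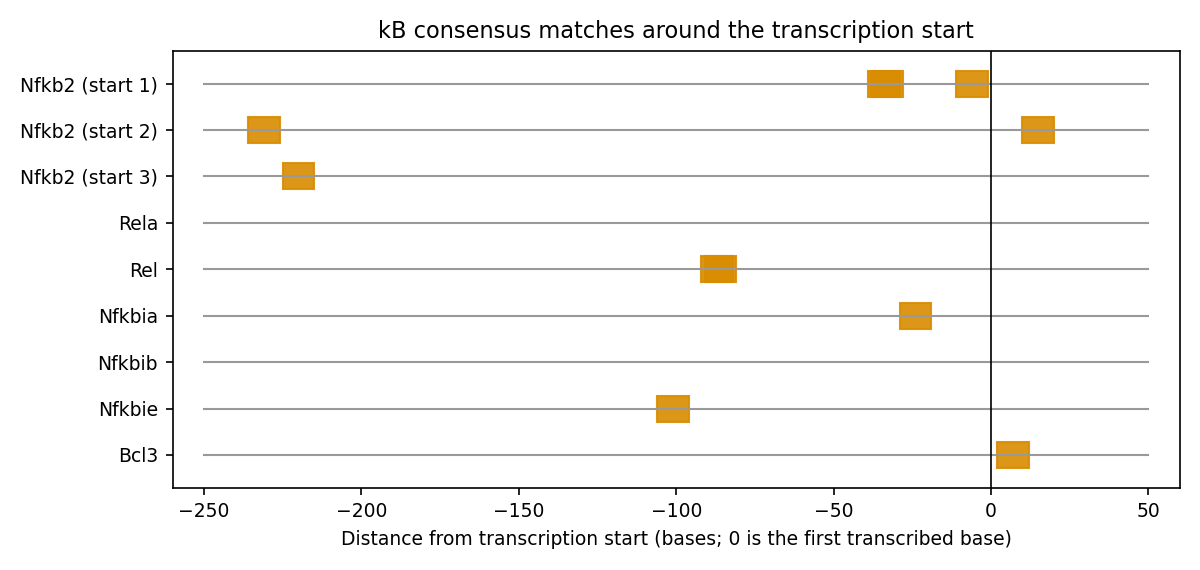
Matches to the kB consensus (orange boxes, 10 bases each, so that overlapping matches merge) along 9 promoters of 7 members (rows); the x axis is the distance in bases from the first transcribed base, drawn as 0. The promoters of Nfkb2, Rel, Nfkbia, Nfkbie and Bcl3 carry matches, and the rows of Rela and Nfkbib are empty.

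Among the subunits, Rela encodes p65, the transactivating partner of the classical dimer. Its FPKM was 19.6, 19.2, 19.3 and 19.8 in DoxSa 1 to 4, against 19.6, 17.9, 18.8 and 17.6 in DMSO 1 to 4. The DoxSa libraries were all at the upper end of the DMSO range, but DMSO 1 lay among them, so the groups overlapped. The log2 fold change was 0.07 ± 0.04 (SE, 95% interval -0.01 to 0.16; limma adjusted p = 0.334), and Rela was not called in any of 18 alternative fits. The interval leaves room for a change of a size like that of Nfkb1, so the test does not show that Rela stayed the same.

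Nfkb1 encodes p105, an IkB-like precursor that is processed to p50, the usual partner of p65. It was read at 17.0, 17.6, 17.1 and 17.0 FPKM in DoxSa 1 to 4, against 15.4, 15.9, 15.7 and 14.6 FPKM in DMSO 1 to 4. The DoxSa values were tightly grouped and all lay above the highest DMSO value. The mean was 17.2 ± 0.296 FPKM in DoxSa and 15.4 ± 0.557 FPKM in DMSO (SD, n = 4 each), and the log2 fold change was 0.14 ± 0.04 (SE; limma adjusted p = 0.0419). This call sat near the threshold: it was lost when any 1 of the 8 libraries was left out, and over the 18 alternatives its adjusted p ran from 0.0353 to 0.114. With all 8 libraries it was also lost with equal FPKM sums, quantile normalization or a replicate block. The same held without an intensity trend or without a filter on low values.

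Rel encodes c-Rel, a transactivating subunit best known from lymphoid and myeloid cells, and it was the lowest member. Its values were 1.94, 1.97, 1.78 and 1.94 FPKM in DoxSa 1 to 4, against 1.73, 1.68, 2.03 and 1.51 FPKM in DMSO 1 to 4. DMSO 3 held the highest value of all 8 libraries and DoxSa 3 the lowest of its group, so the groups overlapped. The log2 fold change of 0.09 ± 0.06 (SE, 95% interval -0.04 to 0.22) did not pass the test (limma adjusted p = 0.467). Between 461 and 616 reads per library stood behind it. The DMSO spread was 2.85 times the SD that counting alone gives, whereas the DoxSa spread was 1.08 times it, about the size of counting error.

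Nfkb2 and Relb form the alternative pathway: Nfkb2 encodes p100, which retains RelB in the cytoplasm until the NF-kB-inducing kinase has it processed to p52. Nfkb2 had 5.66, 5.37, 5.32 and 5.46 FPKM in DoxSa 1 to 4, against 4.47, 4.32, 4.58 and 4.10 FPKM in DMSO 1 to 4. All DoxSa libraries lay well above all DMSO libraries. Its log2 fold change of 0.27 ± 0.04 (SE; limma adjusted p = 0.00658) was the largest of the subunits and was called in all 18 alternatives. On 1897 to 2645 reads per library it was also among the best counted members.

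Relb had 3.51, 3.28, 3.14 and 2.96 FPKM in DoxSa 1 to 4, against 2.73, 2.80, 2.56 and 2.32 FPKM in DMSO 1 to 4. The groups did not overlap, although the lowest DoxSa library lay only a little above the highest DMSO library. The mean was 3.22 ± 0.233 FPKM in DoxSa and 2.60 ± 0.214 FPKM in DMSO (SD, n = 4 each), with a log2 fold change of 0.23 ± 0.06 (SE; limma adjusted p = 0.0453). That call was lost without DoxSa 1, 2 or 3 and without any 1 of the DMSO libraries, with adjusted p from 0.0522 to 0.125 in those fits and from 0.0114 to 0.142 over all 18 alternatives. With every library kept, it was also lost with equal FPKM sums, with library weights and without a filter on low values. The ratio of Nfkb2 to Relb was 1.70 ± 0.103 in DoxSa and 1.68 ± 0.116 in DMSO (SD, n = 4 each), with overlapping groups.

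Of the classical cytoplasmic IkB genes, Nfkbia encodes IkB-alpha, the fast feedback inhibitor of p65 dimers, and it was the most abundant member. It was read at 33.9, 33.6, 31.4 and 31.3 FPKM in DoxSa 1 to 4, against 27.1, 23.2, 28.01 and 24.9 FPKM in DMSO 1 to 4. Every DoxSa library exceeded the highest DMSO library by more than 3 FPKM. The mean was 32.6 ± 1.39 FPKM in DoxSa and 25.8 ± 2.17 FPKM in DMSO (SD, n = 4 each), and the log2 fold change was 0.33 ± 0.06 (SE, 95% interval 0.20 to 0.45; limma adjusted p = 0.00732).

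Nfkbie encodes IkB-epsilon, a slower feedback inhibitor, and showed the largest change of the family. It had 9.02, 9.18, 8.62 and 8.71 FPKM in DoxSa 1 to 4, against 6.60, 6.49, 7.19 and 6.39 FPKM in DMSO 1 to 4. The gap between the groups was wider than the range within either of them. The mean was 33.3% higher in DoxSa, the log2 fold change was 0.37 ± 0.04 (SE, 95% interval 0.27 to 0.47; limma adjusted p = 8.82e-04), and by adjusted p the gene ranked 63 among all tested genes.

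Nfkbib encodes IkB-beta, an inhibitor less tied to rapid feedback than IkB-alpha. Its values were 9.08, 8.58, 8.71 and 8.82 FPKM in DoxSa 1 to 4, against 7.22, 7.40, 7.11 and 7.44 FPKM in DMSO 1 to 4. Replicates lay closer together than for any other IkB gene relative to their mean, and the groups were far apart. The log2 fold change was 0.24 ± 0.04 (SE; limma adjusted p = 0.00440). Nfkbib and Nfkbie were called in all 18 alternatives, as Nfkb2 was, and Nfkbia in 17 of them.

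Bcl3 and Nfkbiz are atypical IkB proteins that act in the nucleus, mostly on dimers of p50 or p52, and can raise as well as lower transcription of target genes. Bcl3 had 13.0, 15.5, 15.5 and 14.1 FPKM in DoxSa 1 to 4, against 11.8, 12.4, 11.98 and 11.2 FPKM in DMSO 1 to 4. DoxSa 1 lay close above the DMSO libraries and the other DoxSa libraries well above them. The log2 fold change was 0.27 ± 0.06 (SE; limma adjusted p = 0.0190). The call was lost without DoxSa 2 (limma adjusted p = 0.0613), without DoxSa 3 (0.0545) and, with every library kept, without a filter on low values (0.0856). Over the 18 alternatives the adjusted p ran from 0.00769 to 0.0856.

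Nfkbiz encodes IkB-zeta, which is needed in mouse macrophages for a class of secondary inflammatory genes, and it was the one IkB gene that was not called. It had 4.71, 4.43, 4.29 and 3.53 FPKM in DoxSa 1 to 4, against 4.48, 3.91, 4.19 and 3.78 FPKM in DMSO 1 to 4. The DoxSa group held both the highest and the lowest library, so its values spanned the whole DMSO range. The log2 fold change was 0.04 ± 0.07 (SE, 95% interval -0.12 to 0.20; limma adjusted p = 0.835), and without DoxSa 1 it was -0.00455.

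**Figure D3:**
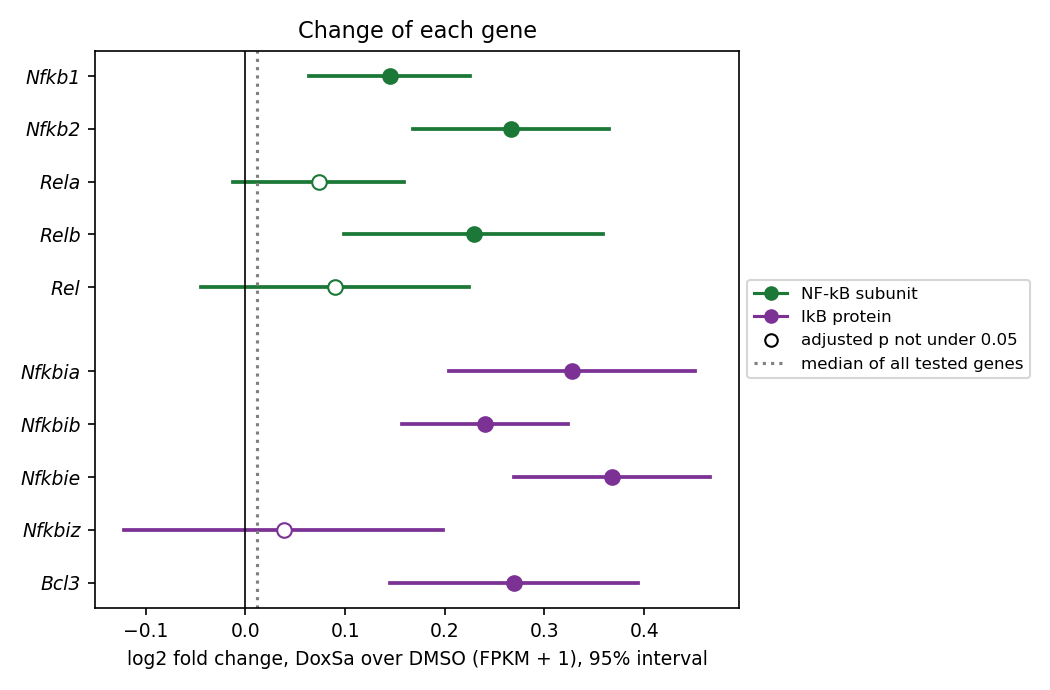
Log2 fold change of FPKM + 1, DoxSa over DMSO (x axis), with its 95% interval from limma for each member (rows; green, subunits; purple, IkB proteins); filled points had an adjusted p under 0.05 and open points did not, and the dotted line is the median of all tested genes, 0.01. Intervals of Rela, Rel and Nfkbiz include 0, and Nfkbie and Nfkbia lie farthest to the right.

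Set side by side, the IkB genes had a median log2 fold change of 0.27 and the subunits one of 0.14, a difference of 0.12 that is given as a description without a test, since the members were chosen with earlier results known. The summed FPKM of the 5 IkB genes was 69.0 ± 1.99 in DoxSa libraries and 55.7 ± 2.51 in DMSO libraries (SD, n = 4 each). For the 5 subunits the sum was 47.2 ± 0.427 in DoxSa libraries and 42.6 ± 1.70 in DMSO libraries. Both sums were higher in every DoxSa library than in any DMSO library. IkB transcript per subunit transcript was 1.41 to 1.503 in DoxSa libraries and 1.26 to 1.34 in DMSO libraries, so this ratio of sums did not overlap, with Nfkbia making up 47.2% of the IkB sum in DoxSa and 46.3% in DMSO. With every gene weighted alike, as the mean log2(FPKM + 1) of the IkB genes minus that of the subunits, the libraries ran from 0.58 to 0.66 in DoxSa and from 0.51 to 0.59 in DMSO, and there the groups overlapped. The ratio of sums also depends on the gene lengths behind the FPKM, which for Nfkb2 and Relb are well above those of their longest annotated transcripts. Per length of the longest GENCODE M21 transcript, an alternative chosen after seeing the data, it was 0.959 to 1.02 in DoxSa libraries and 0.866 to 0.928 in DMSO libraries, still without overlap. With Rela alone as the denominator, Nfkbia in FPKM stood at 1.67 ± 0.0796 in DoxSa and 1.40 ± 0.0786 in DMSO (SD, n = 4 each). These are ratios of transcripts scaled per length, and proteins were not measured.

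**Figure D4:**
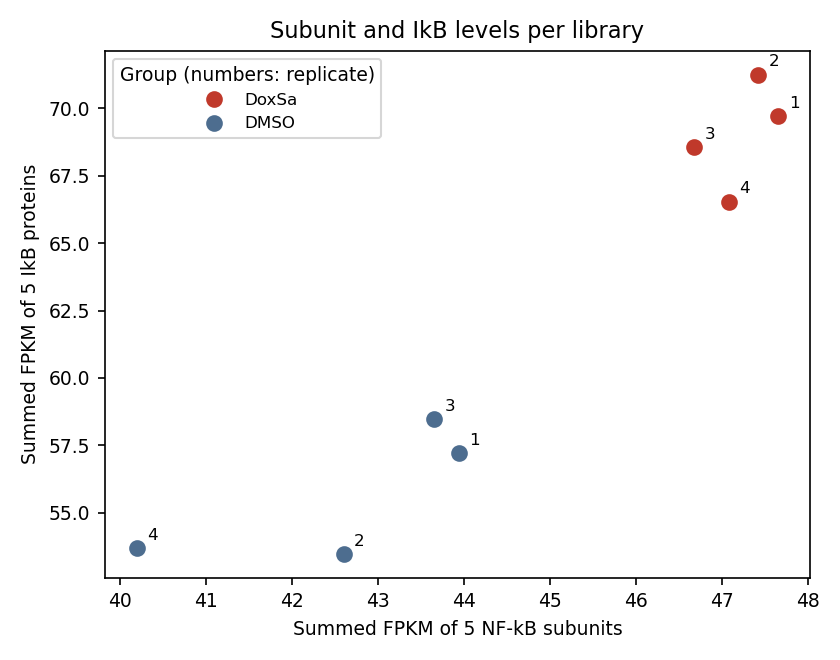
Summed FPKM of the 5 IkB proteins (y axis) against summed FPKM of the 5 NF-kB subunits (x axis); each point is a library, numbered by replicate, with DoxSa in red and DMSO in blue. The DoxSa libraries lie between 66.5 and 71.3 on the y axis and the DMSO libraries between 53.5 and 58.5.

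Within each class the composition shifted a little. Rela made up 40.5% to 41.95% of the subunit FPKM in DoxSa libraries and 41.97% to 44.6% in DMSO libraries, so the share of the most abundant subunit was smaller in DoxSa by a margin that hardly separates the groups. Nfkb2 took 11.3% to 11.9% in DoxSa libraries and 10.1% to 10.5% in DMSO libraries. Per length of the longest transcript the share of Nfkb2 would be 23.1% to 23.9% in DoxSa libraries and 21.05% to 21.8% in DMSO libraries, so its size, though not its direction, depends on the length used. Among the IkB genes, Nfkbie took 12.6% to 13.1% in DoxSa libraries and 11.5% to 12.3% in DMSO libraries, and Nfkbiz took 5.31% to 6.75% in DoxSa libraries and 7.04% to 7.84% in DMSO libraries. The shares of Nfkb1, Relb, Rel, Nfkbia, Nfkbib and Bcl3 overlapped between the groups. A share falls whenever the rest of its class rises more, so these shares restate the changes in level. Mean FPKM was not lower in DoxSa than in DMSO for Rela (19.5 against 18.5) or Nfkbiz (4.24 against 4.09).

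In FPKM the order of levels from the top was Nfkbia, Rela, Nfkb1 and Bcl3 in both groups, with ranges that did not touch. Nfkbie and Nfkbib followed with overlapping ranges, at 8.88 ± 0.264 and 8.80 ± 0.211 FPKM in DoxSa, and at 6.67 ± 0.358 and 7.29 ± 0.157 FPKM in DMSO (SD, n = 4 each). Nfkb2, Nfkbiz, Relb and Rel closed the order, with Nfkb2 and Nfkbiz apart in DoxSa and overlapping in DMSO. The places of Nfkb2 and Relb depend on the gene length the authors used. The length recovered from their FPKM was 11300 bases for Nfkb2 and 8706 bases for Relb, against 3846 and 3273 bases for the longest GENCODE M21 transcripts, whereas the other members lay within 0.81 to 1.24 times theirs. Per length of the longest transcript, Nfkb2 would stand at 16.0 ± 0.440 in DoxSa and 12.8 ± 0.607 in DMSO, the fourth level of the family. Relb would stand at 8.58 ± 0.619 in DoxSa and 6.93 ± 0.570 in DMSO, the seventh level. A gene's length is the same in all libraries and touches its fold change only through the added 1 FPKM.

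Some members share exonic bases with a gene on the other strand in GENCODE M21, and whether reads were counted by strand is not given in the sources used here. Nfkbib overlaps Sirt2 over 42 bases and Ccer2 over 314 bases, Nfkb2 overlaps AC114539.1 over 531 bases and Psd over 299 bases, and Bcl3 overlaps Gm16175 over 161 bases. Sirt2 stood at a mean of 33.3 FPKM and Psd at 0.215 FPKM over the 8 libraries. Unless reads were counted by strand, those in such stretches cannot be told apart between the genes.

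Upstream of the members are the kinases that act on IkB. In a list of 12 genes of the IkB kinase complex, the NF-kB-inducing kinase and TAK1, 0 were called in either direction by limma or by voom, 2 were higher and 0 lower at an unadjusted p under 0.05, and the median log2 fold change was 0.04, with 10 of 12 above 0. A count of 0 in so short a list is near the shares over all tested genes (3.88% higher and 2.02% lower). Of all tested genes, 6839 of 12060 had a log2 fold change above 0. Their share at an unadjusted p under 0.05 is not given here. Ikbkb, the kinase subunit that phosphorylates IkB-alpha, had 9.97 ± 0.597 FPKM in DoxSa and 9.51 ± 0.467 FPKM in DMSO (SD, n = 4 each; limma adjusted p = 0.558). Chuk, the kinase of the alternative pathway, had 9.24 ± 0.758 FPKM in DoxSa and 9.25 ± 0.667 FPKM in DMSO (adjusted p = 0.994). Ikbkg, the scaffold of the complex, was likewise at 6.16 ± 0.311 FPKM in DoxSa and 6.17 ± 0.211 FPKM in DMSO, and Map3k14, the NF-kB-inducing kinase, at 4.28 ± 0.367 FPKM in DoxSa and 4.25 ± 0.203 FPKM in DMSO (SD, n = 4 each; adjusted p = 0.988 and 0.977). Map3k8, a kinase held by p105, had 3.28 ± 0.320 FPKM in DoxSa and 3.06 ± 0.483 FPKM in DMSO (adjusted p = 0.670). Among 10 genes of the ligase that destroys IkB, 0 were called by limma, voom or an unadjusted p under 0.05, and Btrc, its IkB-binding subunit, had 1.79 ± 0.103 FPKM in DoxSa and 1.78 ± 0.152 FPKM in DMSO (SD, n = 4 each; limma adjusted p = 0.965).

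Further layers are the adaptors that feed these kinases and the proteins that restrain them, and differences in counts between lists were not tested. Of 17 adaptors and ubiquitin ligases upstream of the kinases, 2 were called higher and 0 lower, against 3.88% higher over all tested genes, with a median log2 fold change of 0.06. Birc3, a ubiquitin ligase that restrains the alternative pathway, had 12.3 ± 0.290 FPKM in DoxSa and 9.88 ± 0.613 FPKM in DMSO (limma adjusted p = 0.00436). Traf1, an adaptor of TNF-family receptors, had 3.44 ± 0.312 FPKM in DoxSa and 2.43 ± 0.272 FPKM in DMSO (adjusted p = 0.0118). Of 14 tested negative regulators, 3 were called higher and 0 lower, with a median of 0.12. Sqstm1, the autophagy receptor p62, had 111 ± 6.45 FPKM in DoxSa and 77.8 ± 2.04 FPKM in DMSO (adjusted p = 9.59e-05). Tnfaip3, which encodes the deubiquitinase A20, had 4.41 ± 0.370 FPKM in DoxSa and 3.47 ± 0.178 FPKM in DMSO (adjusted p = 0.0186). Zc3h12a, an RNase that degrades inflammatory transcripts, had 7.40 ± 0.340 FPKM in DoxSa and 6.06 ± 0.472 FPKM in DMSO (adjusted p = 0.0208), while Tnip1, a partner of A20, had 14.0 ± 0.420 FPKM in DoxSa and 12.5 ± 0.871 FPKM in DMSO and missed the threshold (adjusted p = 0.120). Values are SD with n = 4 each. Without DoxSa 1 or without DoxSa 2 the count of negative regulators was 1, Sqstm1.

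Among nuclear partners, calls lay near the shares over all tested genes (3.88% higher and 2.02% lower). Of 13 other modulators of NF-kB, 0 were called higher and 1 lower, and of 17 coactivators and corepressors 0 were called by limma, voom or an unadjusted p under 0.05. The lower gene was Pdlim2, a ubiquitin ligase for nuclear p65, with 15.8 ± 0.207 FPKM in DoxSa and 18.7 ± 1.76 FPKM in DMSO (SD, n = 4 each; limma adjusted p = 0.0377), a call lost without any 1 of the libraries DoxSa 1 to 4 and DMSO 1 to 3. Nfkbid, another atypical IkB gene, lay just above the minimum level at 0.688 ± 0.182 FPKM in DoxSa and 0.605 ± 0.216 FPKM in DMSO (SD, n = 4 each; adjusted p = 0.756). The other Rel-homology genes annotated in the table, Nfat5 and Nfatc1 to Nfatc4, were all tested and not called.

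Downstream, 21 of 44 tested genes of a list of canonical NF-kB targets were called higher and 0 lower, with a median log2 fold change of 0.28. Over all tested genes 3.88% were called higher and 2.02% lower, and the list was chosen with earlier results of these data known. Of the targets, 1 was lower at an unadjusted p under 0.05, and 1 in the voom fit. Ptgs2, which encodes cyclooxygenase-2, had 6.01 ± 0.942 FPKM in DoxSa and 1.60 ± 0.186 FPKM in DMSO (SD, n = 4 each; limma adjusted p = 1.97e-05). Serpinb2, a plasminogen activator inhibitor, had a log2 fold change of 1.19 ± 0.11, Cxcl2, a neutrophil chemokine, of 1.11 ± 0.13, and Lcn2, the siderophore-binding lipocalin, of 0.82 ± 0.10 (SE; adjusted p = 2.62e-04, 7.85e-04 and 8.80e-04). Each of these 4 targets had a larger log2 fold change than any member of the family, but they were named for having the smallest adjusted p. Taken as lists, the median was 0.28 for the targets, 0.27 for the IkB genes and 0.14 for the subunits. Without DoxSa 2, 12 targets were called. Of 7 tested genes of the alternative pathway, 2 were called higher and 0 lower, beside the same shares of 3.88% and 2.02% over all tested genes. Tnfsf11, the cytokine RANKL, had 3.97 ± 0.572 FPKM in DoxSa and 2.65 ± 0.143 FPKM in DMSO (limma adjusted p = 0.00687). Cxcl13, a B-cell chemokine, had 1.47 ± 0.232 FPKM in DoxSa and 0.953 ± 0.183 FPKM in DMSO (SD, n = 4 each; limma adjusted p = 0.0389), and its call was lost without DoxSa 1, 2 or 4 or DMSO 1, 2 or 3, which left 1 called gene of the list.

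**Figure D5:**
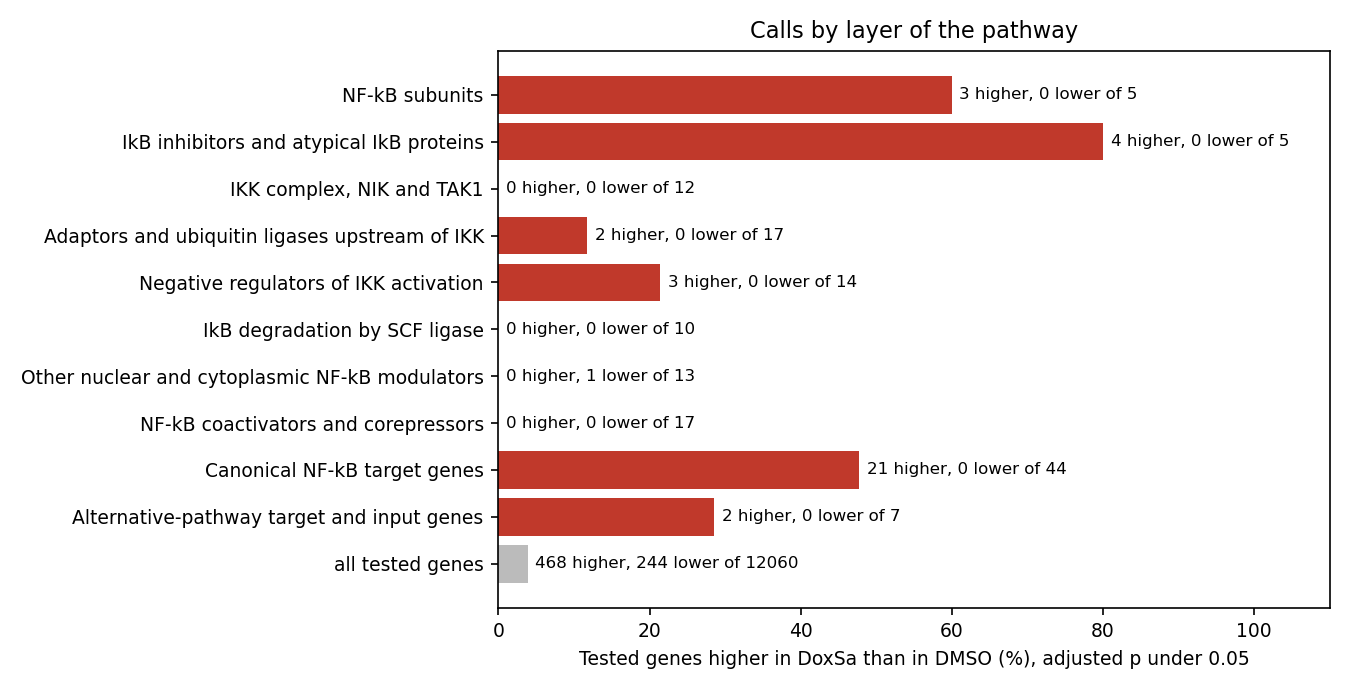
Share of tested genes called higher in DoxSa than in DMSO (x axis, percent, limma adjusted p under 0.05) in each list of the pathway (rows), with the counts of higher and lower calls written beside each bar and all tested genes in grey at 3.88%. The bars of the subunits, the IkB proteins and the target genes are the longest, and those of the IkB kinases, the IkB ligase, the other modulators and the coactivators are at 0.

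The annotation column of the deposited table gave a wider list that was not made for this comparison. Its KEGG term for the NF-kappa B signaling pathway held 100 genes, of which 76 were tested and were not members. Of these 76, 15 (19.7%) were called higher and 1 was called lower, with a median log2 fold change of 0.06. Over all tested genes the shares were 3.88% higher and 2.02% lower, with a median of 0.01. Genes that the term may share with the lists above were not taken out, so it is not a separate set. The lower gene was Gadd45g, a stress-inducible growth arrest gene, with 36.9 ± 1.497 FPKM in DoxSa and 49.8 ± 3.20 FPKM in DMSO (SD, n = 4 each; limma adjusted p = 6.47e-04). It is named because it was the only lower call of the KEGG term. In the GO term canonical NF-kappaB signal transduction, 9 of 61 tested genes were called higher and 0 lower. Nfkb1, Nfkb2, Relb, Nfkbia and Bcl3 were among those 9. In the Reactome term Activation of NF-kappaB in B cells, 6 of 60 tested genes were called higher and 0 lower. Nfkb1, Nfkbia, Nfkbib and Nfkbie were among those 6. Outside the members, these terms thus held fewer higher calls than the KEGG term did.

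For each called member, the protein-coding genes with the most similar standardised profile over the 8 libraries were looked up among 10563 candidates, by the root mean square difference, which had a median of 1.25 to 1.33 over candidates. Birc3 was nearest to Nfkb2 (0.118), followed by Spred2 (0.142). Sdcbp (0.139) and Tgif1 (0.185) were nearest to Nfkbia, Slc7a11 (0.155) and Csf1 (0.178) to Nfkbib, and Itprid2 (0.162) and Pabpc1 (0.169) to Nfkbie. Rab20 (0.184) and Tnfaip2 (0.195) were nearest to Nfkb1, Pwp2 (0.192) and Ptgir (0.229) to Relb, and Pcsk5 (0.292) and Mcu (0.303) to Bcl3. All candidates share the same 8 libraries, so a near profile mostly repeats the split between the groups, and no p is attached to it. Standardising removes the size of a change, so a near profile need not be a called gene. Spred2, Pwp2, Itprid2, Pcsk5 and Mcu were not called, and the other genes named as nearest were called higher.

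Library totals recovered from the FPKM ran from 39213008 to 41365861 reads and did not separate the groups. The cultures held transcripts of several cell types, and in bulk RNA fewer cells of a type and less RNA per cell cannot be told apart. For scale, over all tested genes 3.88% were called higher and 2.02% lower, and 6839 of 12060 log2 fold changes were above 0. The share of all tested genes at an unadjusted p under 0.05 is not given here. All 12 adipocyte markers were above the minimum level, with 0 called higher and 1 called lower. They summed to 11456 to 12048 FPKM in DoxSa and 11503 to 11903 FPKM in DMSO. Most of that sum was Fabp4, with a mean of 8852 FPKM in DoxSa and 8698 FPKM in DMSO. Only 1 of the 12 adipocyte fold changes was above 0, and their median log2 fold change was -0.08. At an unadjusted p under 0.05, 4 of these markers were lower and 0 higher. All 12 macrophage markers were above the minimum level too, among them Adgre1, Csf1r and Cd68. They summed to 7618 to 8121 FPKM in DoxSa and 6854 to 7883 FPKM in DMSO. These sums overlapped, all 12 macrophage fold changes were above 0 with a median of 0.11, and 7 of 12 were higher and 0 lower at an unadjusted p under 0.05. After adjustment 2 markers (Ptprc and Cd14) were called higher, and Ptprc lost its call without any 1 DoxSa library. Their part in the changes of the members was not tested. Progenitor and fibroblast markers summed to 953 to 1026 FPKM in DoxSa and 844 to 1013 FPKM in DMSO, with 0 of 7 called. Smooth muscle and pericyte markers summed to 179 to 198 FPKM in DoxSa and 275 to 318 FPKM in DMSO, with 2 of 4, Acta2 and Myh11, called lower. All 22962 genes of the table were above 0 in some library, so a marker without any reads would be absent from it. Cd3d, Cd8a, Ncr1, Ms4a1 and Cd209a were absent. The markers of T and NK cells found in the table were all below the minimum level, as were those of B cells. Markers of T and NK cells, B cells, endothelial cells and dendritic cells summed to at most 2.32 FPKM in DoxSa and 1.95 FPKM in DMSO, those of neutrophils to at most 5.70 FPKM in DoxSa and 5.34 FPKM in DMSO, and those of mesothelium, nearly all from Krt19, to 11.6 to 16.2 FPKM in DoxSa and 16.8 to 17.3 FPKM in DMSO.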

How the data were processed

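Bulk RNA-seq of 8 libraries was used, 4 with DoxSa and 4 with DMSO, grouped by their titles. Per the labels' protocols, the VAHTS Universal V6 kit was applied to total RNA isolated with TRIzol. HISAT2, HTSeq and build GRCm39 are listed, per the submitters' processing notes, without versions; the annotation and the strand setting, not given in the sources used here, may matter for genes that overlap. The deposited values are FPKM, computed by the authors as reads scaled to gene length and library total, which does not correct for a few genes that take up much of a library.

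The members and gene lists were chosen with earlier results of these data known. Fold changes, SE and p-values come from limma 3.58.1 (R 4.3.3; lmFit, eBayes with an intensity trend) on log2(FPKM + 1) for the 12060 genes whose mean reached 0.5 FPKM, with no covariate and Benjamini-Hochberg adjustment over all of them; adjusted p under 0.05 was called. This scale understates changes of low genes. Reads and gene lengths were recovered from the steps of the FPKM values: for 12060 of 12060 tested genes all libraries gave whole reads (within 0.001), and voom on these reads was an alternative. Replicates within a group differed by more than sampling noise (chi-square per degree of freedom 5.67 to 16.5). Named genes were all members, up to 4 called genes per list and direction by adjusted p (2 in the minor direction), a fixed panel, and the 2 nearest profiles of each called member. Alternatives were another pseudocount (0.1), 2 other filters, no trend, library weights, 3 scalings, a replicate block, voom, each library left out and, chosen after seeing the data, other gene lengths. The main fit, the voom fit and the read recovery were tested on simulated data. For changed genes, the pass mark of these fits was set only at changes of 2-fold and above, larger than that of any member. Python 3.11.15, numpy 2.4.6, pandas 2.3.3 and matplotlib 3.10.9 were used for the rest. Promoters are RefSeq sequences of GRCm38.p6; the expression table carries no coordinates.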

Additional observations from a re-analysis of the deposited data

Results flagged for a closer look

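The FPKM of Rel in DoxSa 3, 1.78, stood apart from the other DoxSa libraries, which lay between 1.94 and 1.97; its gap to the nearest of them was 0.838 of the range of the group. In all, 22 groups of 4 values were checked in this way, the 10 members and the ratio of summed IkB to summed subunit FPKM in each treatment, and chance flags about 1 in 20 such groups. Rel was not called in any fit, so no call of the report rests on that value.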

How the results depend on the processing

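Over 18 alternatives, 9 of 10 members kept the sign of their change, 3 (Nfkb2, Nfkbib and Nfkbie) were called in every one, and 0 members were called lower in any. The exception in sign was Nfkbiz, which ran from -0.00455 (without DoxSa 1) to 0.106 (without DoxSa 4). Without a filter on low values 3 members were higher, and over all genes 158 were higher and 108 lower. Leaving out 1 library at a time gave 4 to 6 members called higher, 233 to 490 genes called higher and 152 to 235 called lower over all genes, and a difference of medians (IkB genes minus subunits) of 0.0986 to 0.158; fewer samples are fitted there. Of the fits that left out a library, the fewest calls over all genes came without DoxSa 2 (233 higher and 152 lower) and without DoxSa 1 (247 and 154); 308 were called higher without DoxSa 3 and 158 lower without DMSO 2. Voom with TMM on recovered reads called 371 genes lower and 508 higher, and quantile normalization 384 higher and 316 lower. With a minimum mean of 2 FPKM, Rel was not tested and the difference of medians was 0.0824. The replicate block called 6 members, with Nfkb1 at a limma adjusted p of 0.0751. Same-numbered libraries correlated at -0.0989 to 0.0654 in their deviations from group means, so no effect shared by number was visible. With 4 libraries per group, this cannot settle whether the libraries were paired. No filter lowered the calls in the lists too, to 1 adaptor, 1 negative regulator, 9 target genes and 0 alternative-pathway genes higher. Between 461 and 2980 reads per library stood behind each member. With longest-transcript lengths, added after seeing the data, the mean ratio of summed IkB to summed subunit level was 0.987 in DoxSa and 0.905 in DMSO.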
